A study of Mus musculus with 14 samples.

Results

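The genes described here encode isoforms of 5 glycolytic enzymes in mouse plexiform neurofibroma (PN), a benign tumor of peripheral nerve: hexokinase (*Hk1*, *Hk2*), phosphofructokinase (*Pfkm*, *Pfkl*, *Pfkp*), aldolase (*Aldoa*, *Aldoc*), lactate dehydrogenase (*Ldha*, *Ldhb*), and pyruvate kinase (*Pkm*). They were chosen by name, as the rows of the count table that carry these symbols, and are 10 of the 24062 genes counted. Bulk RNA-seq was performed on whole tissue in 14 libraries. The control libraries (n = 3) came from dorsal root ganglia (DRG) with nerve roots of mice labelled Nf1fl/fl, and the PN libraries (n = 11) from DhhCre;Nf1fl/fl mice, whose tumors were called slow-growing (n = 5) or fast-growing (n = 6) by their change in volume between MRI scans. All groups carry the floxed *Nf1* allele, and the PN mice also carry Cre driven by *Dhh*, which removes *Nf1* in the Schwann cell lineage from embryonic stages on, so cells outside that lineage keep the gene. The mice were 9 months old by the study's methods (a figure legend gives a younger age), untreated, of both sexes, and of a mixed C57BL/6, I-129, and FVBN background, and the sex of each library is not given.

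Glycolysis splits glucose into pyruvate in the cytosol. Hexokinase traps glucose in the cell, phosphofructokinase commits it to the pathway, aldolase cuts the sugar into smaller pieces, pyruvate kinase makes pyruvate, and lactate dehydrogenase turns pyruvate into lactate and back. Most of these steps have several genes whose use differs by tissue: *Hk1* and *Aldoc* are prominent in the nervous system, *Hk2* in insulin-responsive tissue such as muscle and fat, *Pfkm* and *Aldoa* in muscle, *Pfkl* in liver, and *Pfkp* in platelets and brain. In peripheral nerve, Schwann cell glycolysis is known for supplying lactate to axons.

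The libraries held between 9596773 and 17594164 counts on genes. Levels are given as CPM, counts scaled to a common library total after TMM scaling, and a level of 3 counts corresponds to between 0.167 and 0.313 CPM. The *Nf1* row counts the whole gene, including exons that recombination leaves in place, and spanned 129 to 227 CPM in the 3 controls against 225 to 294 CPM in PNs, so it does not check the deletion. All 12 Schwann cell markers used here were detected, and their summed level was 4712 to 14214 CPM in controls and 8288 to 22805 CPM in PNs. Fast-growing PN 4 stands apart from the others: the summed level of 14 neuron markers was 52.4 CPM there and 1822 to 15674 CPM in the other libraries. Skeletal muscle and fat transcripts were higher in controls, as described with the results that they accompany. The ribosomal RNA precursor *Rn45s* took 16.2% to 17.6% of the counts in controls, 3.48% to 15.4% in 10 PNs, and 18.1% in fast-growing PN 3, and its part in the results was not tested. In bulk tissue, fewer cells of a type and less RNA per cell cannot be told apart.

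When the levels were divided by the length of each gene's longest coding transcript, *Aldoa* was the most abundant member in controls at 1135 ± 172 CPM per kb (SD, n = 3), followed by *Ldha* at 585 ± 48.6 CPM per kb. *Ldhb* at 210 ± 52.5 and *Pkm* at 183 ± 27.4 CPM per kb came next, and their ranges overlapped. *Pfkm* stood at 68.6 ± 23.9 CPM per kb, above every control value of *Hk2*, *Pfkl*, *Pfkp*, and *Aldoc*, whose ranges overlapped each other. *Hk1* was lowest at 11.2 ± 2.92 CPM per kb and overlapped *Aldoc*. In PNs *Aldoa* again led at 428 ± 201 CPM per kb (SD, n = 11), with *Ldha* at 190 ± 56.6 and *Ldhb* at 124 ± 45.2 CPM per kb. The lowest places differed: *Hk2* was last at 4.72 ± 3.21 CPM per kb, while *Hk1* was at 16.6 ± 6.11 CPM per kb, and neighbors in the PN order overlapped throughout.

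The first comparison asked which isoforms differ between PNs and controls. With the 11 PNs as a single group, 5 of the 10 members were called at an adjusted p under 0.05, all lower in PNs (*Hk2*, *Pfkm*, *Pfkl*, *Aldoa*, and *Ldha*). Over all 16283 genes tested, 26.3% were called and 13.4% were lower. The median log2 fold change of the members was -1.10, against 0.095 for all genes tested. For the same 5 members every PN lay below every control, a separation in this direction that 9.13% of tested genes showed. *Hk1*, *Pfkp*, and *Aldoc*, the isoforms prominent in brain, had log2 fold changes of 0.56, 0.22, and 0.19 and were not called. The 5 calls depended on the fit. With the skeletal muscle and fat marker scores described further on as covariates, no member was called, where 3.21% of genes were. Both scores were higher in every control than in every PN, so that fit cannot tell them from group. Without control 3, 3 members were called, where 12.5% of genes were.

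**Figure D1:**
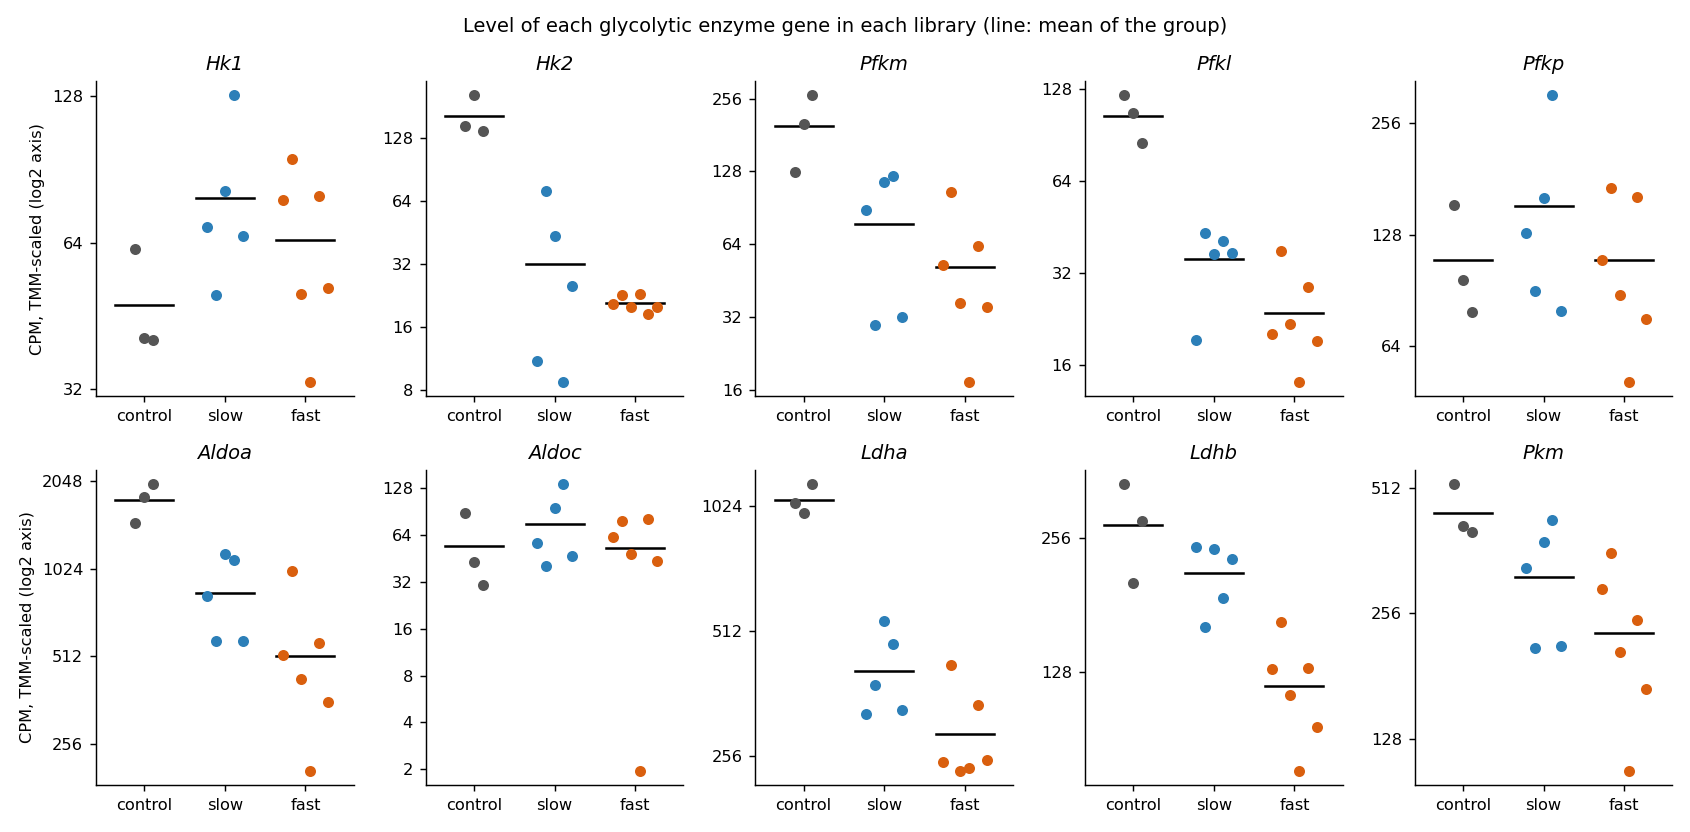
Level of each of the 10 genes (CPM after TMM scaling, log2 axis) in each library of the control (n = 3), slow-growing PN (n = 5), and fast-growing PN (n = 6) groups, with points as libraries and lines as group means. The PN points of *Hk2*, *Pfkm*, *Pfkl*, *Aldoa*, and *Ldha* all lie below the control points, while those of *Hk1*, *Pfkp*, and *Aldoc* overlap them.

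Of the hexokinases, *Hk2* fell in PNs and *Hk1* was not called. *Hk2* (ENSMUSG00000000628, mm10 chr6:82725025-82774454, minus strand) stood at 147, 206, and 139 CPM in controls. In slow-growing PNs it was 11, 72.1, 43.8, 8.79, and 25.2 CPM. In fast-growing PNs it lay between 18.5 and 23.1 CPM with a median of 20.4. The fast-growing tumors were therefore close to each other and far below the controls, while slow-growing PN 2 came nearest to the control range. *Hk2* was 6.39-fold lower in PNs (log2 fold change -2.68 ± 0.42 SE, edgeR adjusted p = 0.000408). The gap was 5.31-fold in slow-growing PNs (adjusted p = 0.0432) and 8.26-fold in fast-growing PNs (adjusted p = 7.45e-06), both from the edgeR quasi-likelihood test. The slow-growing call was lost when control 1, 2, or 3 or slow-growing PN 1, 3, or 5 was left out, with adjusted p between 0.0558 and 0.148.

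*Hk1* (ENSMUSG00000037012, mm10 chr10:62268855-62379908, minus strand) encodes the constitutive hexokinase that binds mitochondria. It was at 62.2, 40.7, and 40.3 CPM in controls, at 68.9, 49.98, 81.6, 128, and 66.1 CPM in slow-growing PNs, and between 33.1 and 95 CPM with a median of 65.1 in fast-growing PNs. Most PN libraries were higher than controls 2 and 3, but the ranges overlapped, and the edgeR log2 fold change of 0.56 ± 0.32 (SE) had an adjusted p of 0.217. As a share of both hexokinases per transcript length, *Hk1* made up 35.2%, 20.3%, and 27.2% in the controls and between 47.2% and 94.96% in PNs. The isoform that dominated thus differed: *Hk2* exceeded *Hk1* per length in all 3 controls, and *Hk1* exceeded *Hk2* in 10 of 11 PNs, slow-growing PN 2 being the exception at 47.2%. The log2 count ratio of *Hk1* to *Hk2* was -1.79 ± 0.55 (SD, n = 3) in controls, 1.65 ± 1.68 (n = 5) in the slow-growing and 1.55 ± 0.61 (n = 6) in the fast-growing PNs. These ratios are descriptive and were not tested.

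Phosphofructokinase forms tetramers from muscle (*Pfkm*), liver (*Pfkl*), and platelet (*Pfkp*) type subunits, and the genes did not move together. *Pfkl* (ENSMUSG00000020277, mm10 chr10:77986947-78010083, minus strand) was at 122, 107, and 85.7 CPM in controls. It was at 19.4, 43.4, 37.1, 40.9, and 37.2 CPM in slow-growing PNs and between 14.1 and 37.9 CPM, with a median of 21.1, in fast-growing PNs. The highest tumor, at 43.4 CPM, was far below the lowest control. The fall was 3.65-fold over all PNs (log2 fold change -1.87 ± 0.28 SE, edgeR adjusted p = 0.000295), 3.07-fold in slow-growing PNs (adjusted p = 0.00586), and 4.66-fold in fast-growing PNs (adjusted p = 0.000228).

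*Pfkm* (ENSMUSG00000033065, mm10 chr15:98092589-98132451, plus strand) varied more. The controls were at 127, 202, and 264 CPM, and the slow-growing PNs at 88.2, 29.6, 115, 122, and 32.0 CPM. Fast-growing PNs ranged from 17.2 to 105 CPM with a median of 44.4. The highest slow-growing PN was thus only just below control 1. *Pfkm* was 3.2-fold lower over all PNs (log2 fold change -1.66 ± 0.47 SE, edgeR adjusted p = 0.018) and 4.09-fold lower in fast-growing PNs (adjusted p = 0.00802). In slow-growing PNs the log2 fold change of -1.42 ± 0.50 (SE) had an edgeR adjusted p of 0.106 and a DESeq2 adjusted p of 0.04, where DESeq2 called 22.5% of genes. Without control 2 or control 3 the call over all PNs was lost (adjusted p = 0.0645 and 0.122), and without control 3 that in fast-growing PNs was lost (adjusted p = 0.0535).

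*Pfkp* (ENSMUSG00000021196, mm10 chr13:6579768-6648777, minus strand) was at 153, 96.6, and 79.1 CPM in controls, 129, 90.5, 160, 303, and 79.8 CPM in slow-growing PNs, and 51.4 to 170 CPM with a median of 98.7 in fast-growing PNs. All groups overlapped, and the log2 fold change over all PNs was 0.22 ± 0.42 (SE, edgeR adjusted p = 0.739). As a share of the 3 subunits per length, *Pfkp* made up 14.3% to 32.5% in controls and 43.6% to 57.8% in PNs, ranges that did not overlap. *Pfkm* made up 54.9 ± 15.1% (SD, n = 3) in controls and 34.4 ± 7.32% (n = 11) in PNs, and *Pfkl* 23.2 ± 5.83% and 14.4 ± 6.16%. The log2 count ratio of *Pfkl* to *Pfkp* was -0.02 ± 0.26 (SD) in controls and -2.07 ± 0.59 in PNs and did not overlap, whereas that of *Pfkm* to *Pfkl*, at 0.86 ± 0.79 and 0.95 ± 0.84, did.

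**Figure D2:**
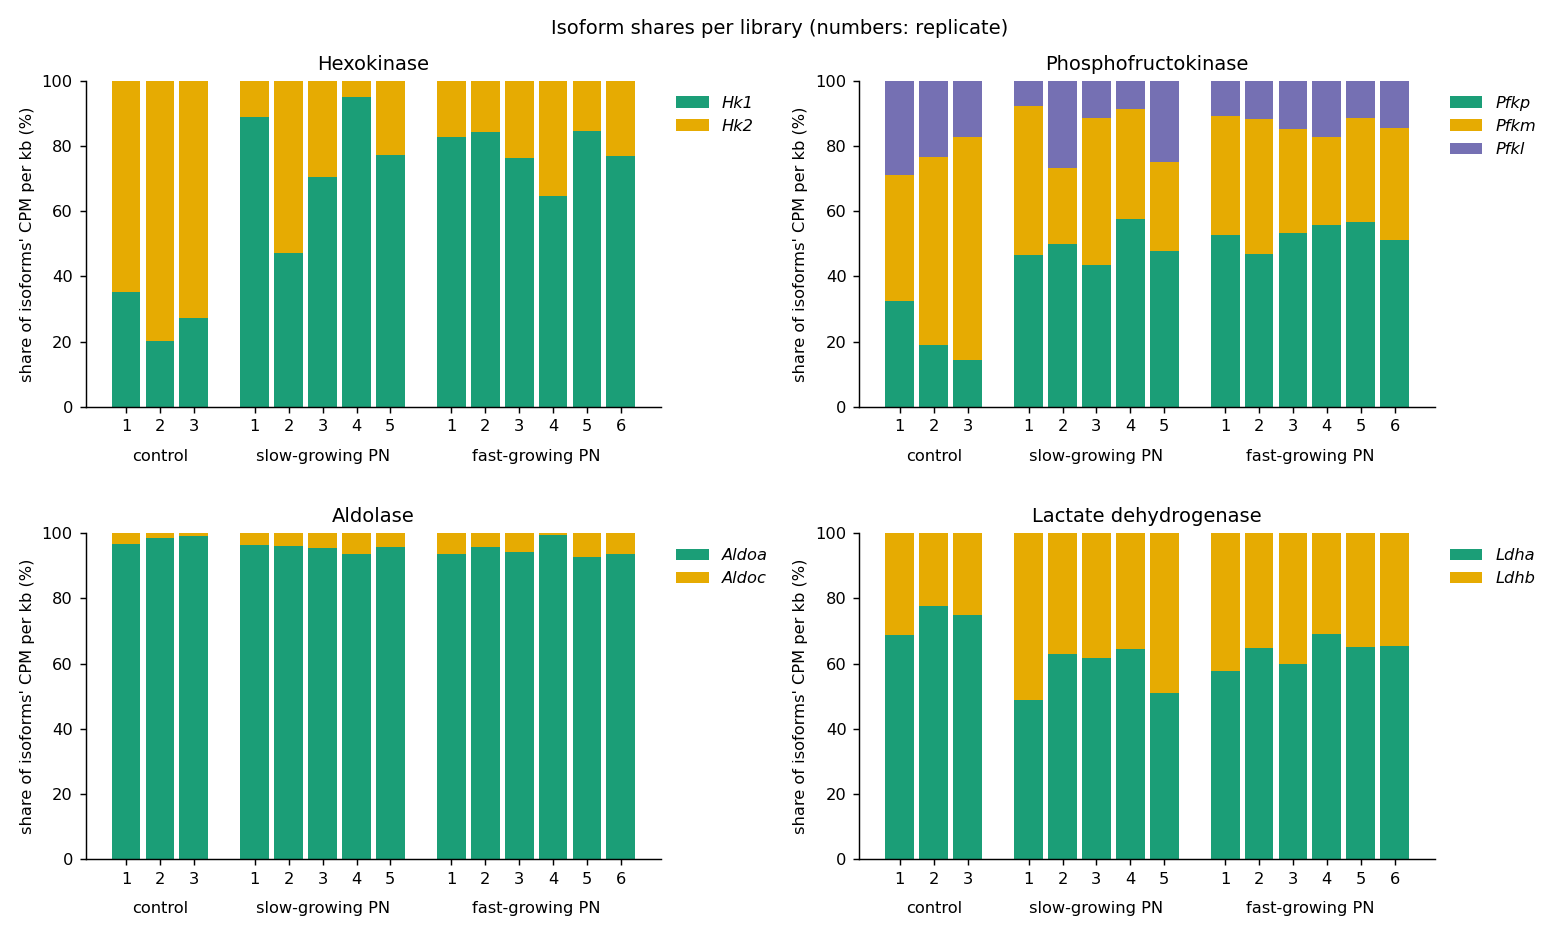
Share of each isoform in the summed CPM per kb of its step (percent, stacked bars) in each library, numbered by replicate, for hexokinase, phosphofructokinase, aldolase, and lactate dehydrogenase. The *Hk1* share is at most 35.2% in controls and at least 47.2% in PNs, and the *Pfkp* share at most 32.5% and at least 43.6%.

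Among the aldolases, *Aldoa* (ENSMUSG00000030695, mm10 chr7:126795234-126800751, minus strand, with a further record of the same symbol at chr7:126800790-126809108), the form of muscle and most other tissues, was the most abundant member per length. It was at 1472, 1804, and 1998 CPM in controls and at 824, 577, 1148, 1097, and 576 CPM in slow-growing PNs. In fast-growing PNs it ranged from 207 to 1002 CPM with a median of 472. Every PN was below every control, and fast-growing PN 4 was lowest. *Aldoa* was 2.68-fold lower over all PNs (log2 fold change -1.42 ± 0.37 SE, edgeR adjusted p = 0.0123), 2.18-fold lower in slow-growing PNs (adjusted p = 0.0448), and 3.64-fold lower in fast-growing PNs (adjusted p = 0.00521). The slow-growing call was the weakest of these and was lost without control 2 or 3 or slow-growing PN 1, 2, 3, or 5 (adjusted p between 0.0602 and 0.174), and the call over all PNs was lost without control 3 (adjusted p = 0.0709). Removal of a length and GC trend ended both calls (adjusted p = 0.235 and 0.0848), and the slow-growing call was also lost without the filter on low counts (adjusted p = 0.0572) and in the fit of all 14 libraries (adjusted p = 0.0692), all by edgeR.

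*Aldoc* (ENSMUSG00000017390, mm10 chr11:78322968-78327781, plus strand), the aldolase of brain, was at 88.8, 43.2, and 30.4 CPM in controls and at 56.5, 40.6, 94.8, 136, and 46.7 CPM in slow-growing PNs. Of the fast-growing PNs, 5 were between 43.6 and 80.7 CPM, and fast-growing PN 4, the library nearly without neuron markers, was at 1.97 CPM. The groups overlapped, and the log2 fold change over all PNs was 0.19 ± 0.66 (SE, edgeR adjusted p = 0.857). Slow-growing PN 4, which had the highest neuron marker sum, also had the highest *Hk1*, *Pfkp*, and *Aldoc* of all libraries. Fast-growing PN 4 had the lowest level of *Hk1*, *Pfkp*, and *Aldoc*, and also of *Pfkm*, *Pfkl*, *Aldoa*, *Ldhb*, and *Pkm*. The part of neuron content in these levels was not tested beyond the fit with a neuron score given further on.

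Lactate dehydrogenase is a tetramer of the *Ldha* subunit, which favors lactate production, and the *Ldhb* subunit of heart and other oxidative tissue. *Ldha* (ENSMUSG00000063229, mm10 chr7:46841475-46855627, plus strand) was at 1044, 984, and 1158 CPM in controls. It was at 324, 379, 542, 477, and 331 CPM in slow-growing PNs and between 236 and 425 CPM, with a median of 249, in fast-growing PNs. The highest PN, at 542 CPM, was well below the lowest control, at 984 CPM. The fall was 3.12-fold over all PNs (log2 fold change -1.64 ± 0.23 SE, edgeR adjusted p = 0.000155), 2.70-fold in slow-growing PNs (adjusted p = 0.00586), and 3.87-fold in fast-growing PNs (adjusted p = 0.000122).

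*Ldhb* (ENSMUSG00000030246, mm10 chr6:142490249-142507957, minus strand) was at 340, 203, and 280 CPM in controls, 244, 162, 243, 188, and 230 CPM in slow-growing PNs, and 76.6 to 165 CPM with a median of 122 in fast-growing PNs. The slow-growing PNs overlapped the controls and the fast-growing PNs did not. *Ldhb* was 2.43-fold lower in fast-growing PNs than in controls (log2 fold change -1.28 ± 0.22 SE, edgeR adjusted p = 0.00237). In slow-growing PNs its log2 fold change was -0.41 ± 0.22 (SE, adjusted p = 0.238), and over all PNs -0.78 ± 0.30 (SE, adjusted p = 0.0718), by the same edgeR test. Over all PNs it was called with upper-quartile factors (adjusted p = 0.0481), by DESeq2 (adjusted p = 0.0432), and in the edgeR fit of all 14 libraries (adjusted p = 0.00999). The *Ldha* share of both subunits per length was 73.8 ± 4.52% (SD, n = 3) in controls, 57.7 ± 7.30% (n = 5) in slow-growing PNs, and 63.7 ± 4.11% (n = 6) in fast-growing PNs. The ranges touched, with fast-growing PN 4 at 69.2% and control 1 at 68.8%.

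The stretches before the RefSeq start sites of *Hk2* and *Ldha*, which fell in PNs of both kinds, and of *Ldhb* are shown because these windows hold no annotated exon and differ in a motif tied to glycolytic genes, the core letters ACGTG and GCGTG that hypoxia-inducible factors recognize. The 250 bases are from RefSeq (GRCm38.p6), 5′ to 3′ on the strand of the gene, with matches to either core on either strand in capitals.
*Hk2*, chr6:82774455-82774704: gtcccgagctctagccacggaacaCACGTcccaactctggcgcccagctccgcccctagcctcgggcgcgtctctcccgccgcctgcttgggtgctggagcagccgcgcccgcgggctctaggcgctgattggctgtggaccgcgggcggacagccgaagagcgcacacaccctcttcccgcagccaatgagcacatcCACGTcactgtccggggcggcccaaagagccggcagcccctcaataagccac
*Ldha*, chr7:46845554-46845803: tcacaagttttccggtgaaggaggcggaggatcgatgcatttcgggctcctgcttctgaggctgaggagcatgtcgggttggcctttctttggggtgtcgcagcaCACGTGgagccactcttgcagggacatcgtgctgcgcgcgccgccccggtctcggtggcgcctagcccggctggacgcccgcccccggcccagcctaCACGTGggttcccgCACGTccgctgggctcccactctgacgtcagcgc
*Ldhb*, chr6:142507958-142508207: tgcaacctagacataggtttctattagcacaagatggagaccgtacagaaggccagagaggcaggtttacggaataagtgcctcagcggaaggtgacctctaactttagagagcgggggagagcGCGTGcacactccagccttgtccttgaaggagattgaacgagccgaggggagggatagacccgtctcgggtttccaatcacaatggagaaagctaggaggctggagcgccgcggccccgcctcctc
In *Hk2* the matches begin 226 and 52 bases before the start site. In *Ldha* the palindrome CACGTG, which holds ACGTG on both strands, begins 145 and 48 bases before it, and a further match begins at 34. A second *Ldha* start site is listed downstream, and its window holds a single GCGTG, 59 bases before the start. *Ldhb* has a single GCGTG, 126 bases before its start. Other windows without an annotated exon are not shown, among them 1 of *Aldoa* with ACGTG and 1 of *Pfkm* with CACGTG. *Pfkl*, also lower in PNs of both kinds, has no ACGTG and, like *Ldhb*, a single GCGTG. It begins 99 bases before the start, in a window with 53 annotated exon bases. *Hk1* and *Pfkp*, which were not called, each have a window with 3 GCGTG matches. Any tie between these matches and the fold changes was not tested. Over the 19 start sites listed for the 10 members, some of whose windows overlap, 15 had ACGTG or GCGTG in these 250 bases. Of all 32851 windows of the same length 38.6% had either core, 16.6% had ACGTG, and 6.02% had CACGTG. A match describes letters and not a bound site. *Hif1a*, which encodes a hypoxia-inducible factor, stood at 81.3 ± 4.26 CPM (SD, n = 3) in the control group and at 99.1 ± 14.2 CPM (n = 11) in PNs (edgeR adjusted p = 0.163). Of 15 genes of the hypoxia response, 3 were lower in PNs (*Egln3*, *Vegfa*, and *Ankrd37*) and none was higher by the edgeR test, where 13.4% of all genes were lower. In fast-growing PNs 7 of the 15 were lower, where 16.7% of all genes were, and in slow-growing PNs none was called.

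*Pkm* (ENSMUSG00000032294, mm10 chr9:59656368-59679375, plus strand) encodes the pyruvate kinase of most tissues, and its gene count does not separate its splice forms. It was at 522, 414, and 401 CPM in controls, 329, 211, 378, 427, and 214 CPM in slow-growing PNs, and 107 to 357 CPM with a median of 227 in fast-growing PNs. The slow-growing PNs overlapped the controls through slow-growing PN 4, and the fast-growing PNs lay below them. *Pkm* was 2.04-fold lower in fast-growing PNs (log2 fold change -1.03 ± 0.30 SE, edgeR adjusted p = 0.0277), a call that was lost without control 1, 2, or 3 or fast-growing PN 3 or 6 (adjusted p between 0.0650 and 0.0846). Over all PNs the log2 fold change was -0.76 ± 0.31 (SE, adjusted p = 0.0805), and in slow-growing PNs -0.57 ± 0.27 (SE, adjusted p = 0.186), by the same edgeR test. Over all PNs it was called with upper-quartile factors in edgeR (adjusted p = 0.0414) and by DESeq2 (adjusted p = 0.0414).

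Each growth class was also set against the same 3 controls on its own. In slow-growing PNs, 4 of 10 members were called, all lower (*Hk2*, *Pfkl*, *Aldoa*, and *Ldha*), where 11.3% of 15714 genes tested were called and 7.13% were lower. Groups did not overlap for these genes and *Pfkm*, 5 of 10 members, where 12% of genes lay wholly below the controls. In fast-growing PNs, 7 of 10 were called, all lower (*Pfkm*, *Ldhb*, and *Pkm* in addition), where 31.4% of 16037 genes tested were called and 16.7% were lower. The same 7 did not overlap the controls, and 14.9% of genes tested lay wholly below them. Without fast-growing PN 4, 6 of 10 members were called over all PNs, *Pkm* being added, where 26.3% of genes were, and 7 in fast-growing PNs, where 32.1% were.

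Fast-growing were then compared directly with slow-growing PNs, which asks whether the isoforms differ with tumor growth. No member was called by edgeR, where 1.27% of 15465 genes tested were called. All 10 log2 fold changes were below 0, between -0.85 and -0.29, as were 53.5% of those tested, and no member separated the groups, where 0.905% of genes lay wholly lower. At an unadjusted p under 0.05 there were 3 members (*Pfkl*, *Ldha*, and *Ldhb*), where 20.4% of genes passed. *Ldhb* came nearest to a call, 1.80-fold lower in fast-growing PNs with a log2 fold change of -0.85 ± 0.19 (SE) and an edgeR adjusted p of 0.0544. Its lowest slow-growing value, 162 CPM, was just under the highest fast-growing value of 165 CPM. *Ldhb* alone was called by DESeq2 (adjusted p = 0.000957), where 10.3% of genes were called, in a fit of all 14 libraries (adjusted p = 0.0443, 2.6% of genes), with a neuron marker score as covariate (adjusted p = 0.0408, 2.16%), and after removal of a length and GC trend (adjusted p = 0.0444, 2.26%). No member was called by limma-voom, where 0.22% of genes were, or by edgeR without fast-growing PN 4, where 0.013% were and the adjusted p of *Ldhb* was 0.0865. In all, *Ldhb* was called in 4 of 9 other settings that kept all libraries and in 3 of 11 fits without 1 library. With muscle and fat covariates 0 genes of the whole table were called. The largest difference after *Ldhb* was that of *Aldoa*, at -0.72 ± 0.35 (SE, edgeR adjusted p = 0.277).

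**Figure D3:**
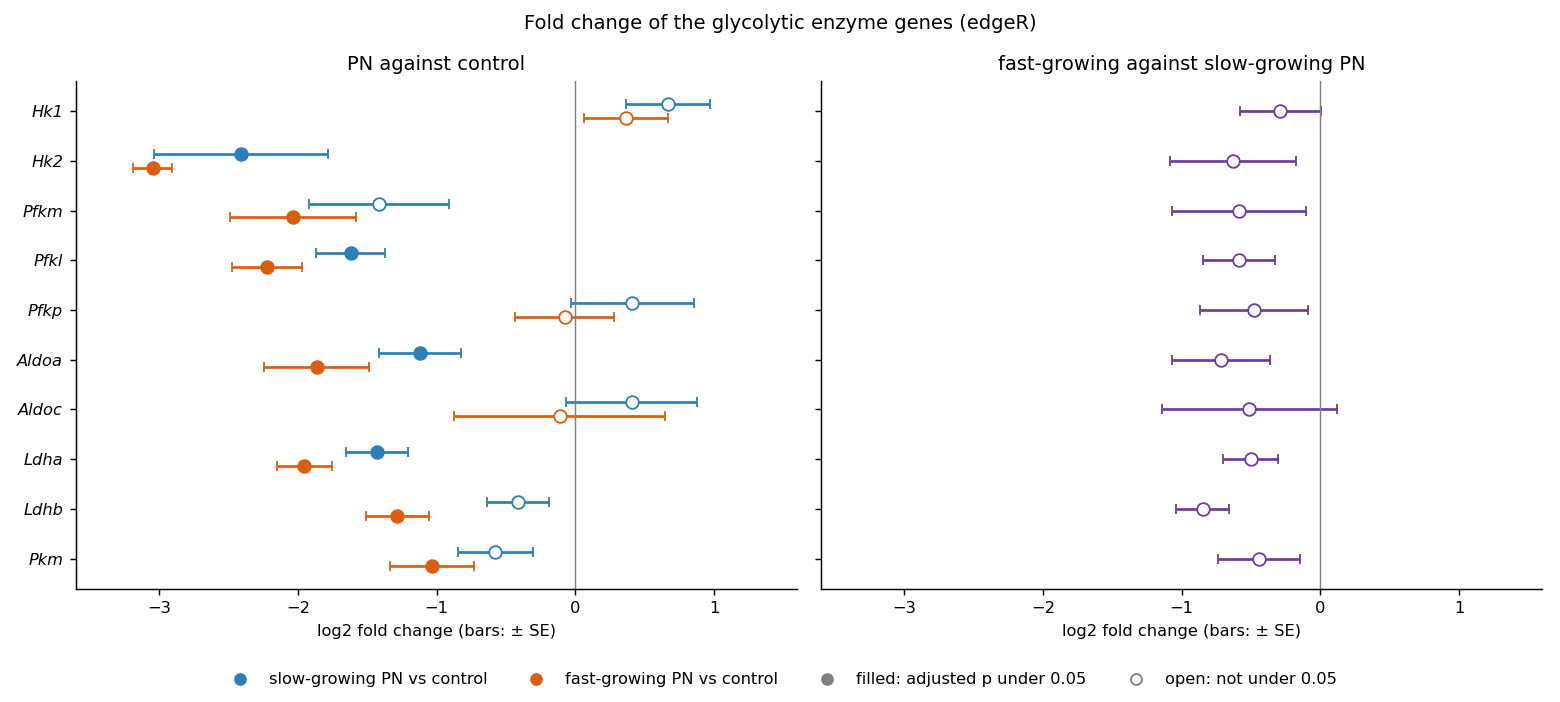
Log2 fold change (x axis, bars ± SE) of each gene, with slow-growing and fast-growing PNs each against controls at the left and fast-growing against slow-growing PNs at the right, and filled points for an edgeR adjusted p under 0.05. *Hk2* lies at -2.41 and -3.05 against controls, and all points at the right are open.

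Skeletal muscle and fat transcripts moved with the genes that fell. The summed level of 15 muscle markers was 5453 to 21073 CPM in controls, 53.8 to 5315 CPM in slow-growing PNs, and 182 to 3729 CPM in fast-growing PNs, and no marker was at 0 throughout a group. By the edgeR test 7 of these markers were lower over all PNs, 13 were lower in fast-growing PNs, and none was called in slow-growing PNs, where 13.4%, 16.7%, and 7.13% of all genes were lower. The summed level of 13 fat markers was 3621 to 5287 CPM in controls, 52.7 to 3034 CPM in slow-growing PNs, and 45.7 to 253 CPM in fast-growing PNs, with 3 called lower over all PNs, 13 lower in fast-growing PNs, and 1 in slow-growing PNs, against the same shares of all genes. Neither *Adipoq* nor *Ucp1*, which define fat and brown fat, was at 0 in the controls, where they stood at 362 ± 74.6 and 970 ± 262 CPM (SD, n = 3). Of 14 neuron markers none was called in any of these comparisons, and their sum was 1822 to 6545 CPM in controls and 52.4 to 15674 CPM in PNs. Of the 12 Schwann cell markers 5 were higher over all PNs, where 12.9% of all genes were higher. Of 6 endothelial markers *Kdr* was lower over all PNs and in slow-growing PNs, and *Kdr* and *Flt1* were lower in fast-growing PNs. All 6 fibroblast markers were higher in fast-growing PNs, where 14.8% of all genes were higher, and none was called over all PNs, with sums of 1898 to 3681 CPM in controls and 5489 to 10354 CPM in fast-growing PNs. Of 4 satellite glia markers *Cdh19*, also a Schwann cell marker, and *Kcnj10* were higher over all PNs, and *Glul* was lower in fast-growing PNs. Of 8 macrophage markers none was called. Of 5 red blood cell genes only *Alas2* passed the filter. The other 4, all globin genes, were at 0 in every PN, and in controls only *Hbb-bs* had counts, at most 0.104 CPM. Blood content can therefore not be read from these rows. *Alas2* was lower in fast-growing PNs, at 24.5 ± 6.80 CPM (SD, n = 6) against 86.8 ± 27.4 CPM (n = 3) in controls. It was not called over all PNs or in slow-growing PNs. The part of Schwann cell, satellite glia, macrophage, fibroblast, endothelial, and red blood cell content in the members' levels was not tested.

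With the muscle and fat scores of each library (mean log2(CPM + 1) of the markers) as covariates in the fit, no member was called over all PNs, where 3.21% of 16283 genes were. Muscle scores were at least 7.97 in controls and at most 7.89 in PNs, and fat scores at least 7.53 and at most 6.87. Since neither score overlapped between the groups, these fits cannot tell group from muscle and fat content. Among the 5 members that had been called, the log2 fold change of *Hk2* was -2.13 ± 0.59 (SE, edgeR adjusted p = 0.0702), that of *Pfkl* -1.30 ± 0.53 (adjusted p = 0.203), and that of *Ldha* -0.81 ± 0.34 (adjusted p = 0.216). *Pfkm* at -0.41 ± 0.56 and *Aldoa* at -0.16 ± 0.53 (SE) were nearer to 0 (edgeR adjusted p = 0.687 and 0.879). *Hk1* was at 0.87 ± 0.50 (SE, edgeR adjusted p = 0.34). Where either growth class alone was fitted against controls, these covariates left 0 genes called in the whole table by edgeR, with 1060 (slow-growing) and 1104 (fast-growing) at an unadjusted p under 0.05. In slow-growing PNs they gave log2 fold changes of -1.75 for *Hk2*, -1.97 for *Pfkl*, and -0.67 for *Aldoa* (SE 0.76, 0.47, and 0.42). Without them these were -2.41, -1.62, and -1.12. In fast-growing PNs, over these and the other settings that kept all libraries, *Hk2* lay between -3.09 and -2.86 and *Pfkl* between -2.27 and -1.80. Neither was called with the muscle and fat covariates (edgeR adjusted p = 0.358 and 0.828). Fat scores were at most 3.43 in fast-growing PNs, far from those of controls. Over the same settings *Pfkm* ranged from -2.16 to -0.48, *Aldoa* from -2.01 to -1.01, and *Ldha* from -1.98 to -0.96. With the neuron score as covariate, 8 of 10 members were called over all PNs where 33.7% of genes were: *Ldhb* and *Pkm* were added as lower and *Hk1* as higher, at a log2 fold change of 0.48 ± 0.17 (SE, edgeR adjusted p = 0.0418).

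The members also differed within single libraries. Slow-growing PN 1, slow-growing PN 3, and fast-growing PN 2 had muscle scores of 7.68, 7.89, and 7.32. These were close to that of control 1 at 7.97, the lowest of the controls. In these 3 PNs *Pfkm* was at 88.2, 115, and 105 CPM, against 127 CPM in control 1. *Pfkl* was at 19.4, 37.1, and 37.9 CPM, against 122 CPM, and *Hk2* at 11, 43.8, and 22.8 CPM, against 147 CPM. *Aldoa* was at 824, 1148, and 1002 CPM, against 1472 CPM, and *Ldha* at 324, 542, and 425 CPM, against 1044 CPM. Slow-growing PN 4, with a lower muscle score of 6.17, had the highest *Pfkm* of the PNs at 122 CPM. The fat scores of the 3 PNs were 3.60, 6.44, and 2.19, below the 7.63 of control 1. The PNs with the highest fat scores, slow-growing PNs 2, 3, and 5 at 6.44, 6.44, and 6.87, were those with the highest *Hk2* of all PNs, at 72.1, 43.8, and 25.2 CPM. These libraries were picked after their values had been seen. The part of muscle and fat content in the lower levels was not tested beyond these fits, which cannot tell it from group.

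**Figure D4:**
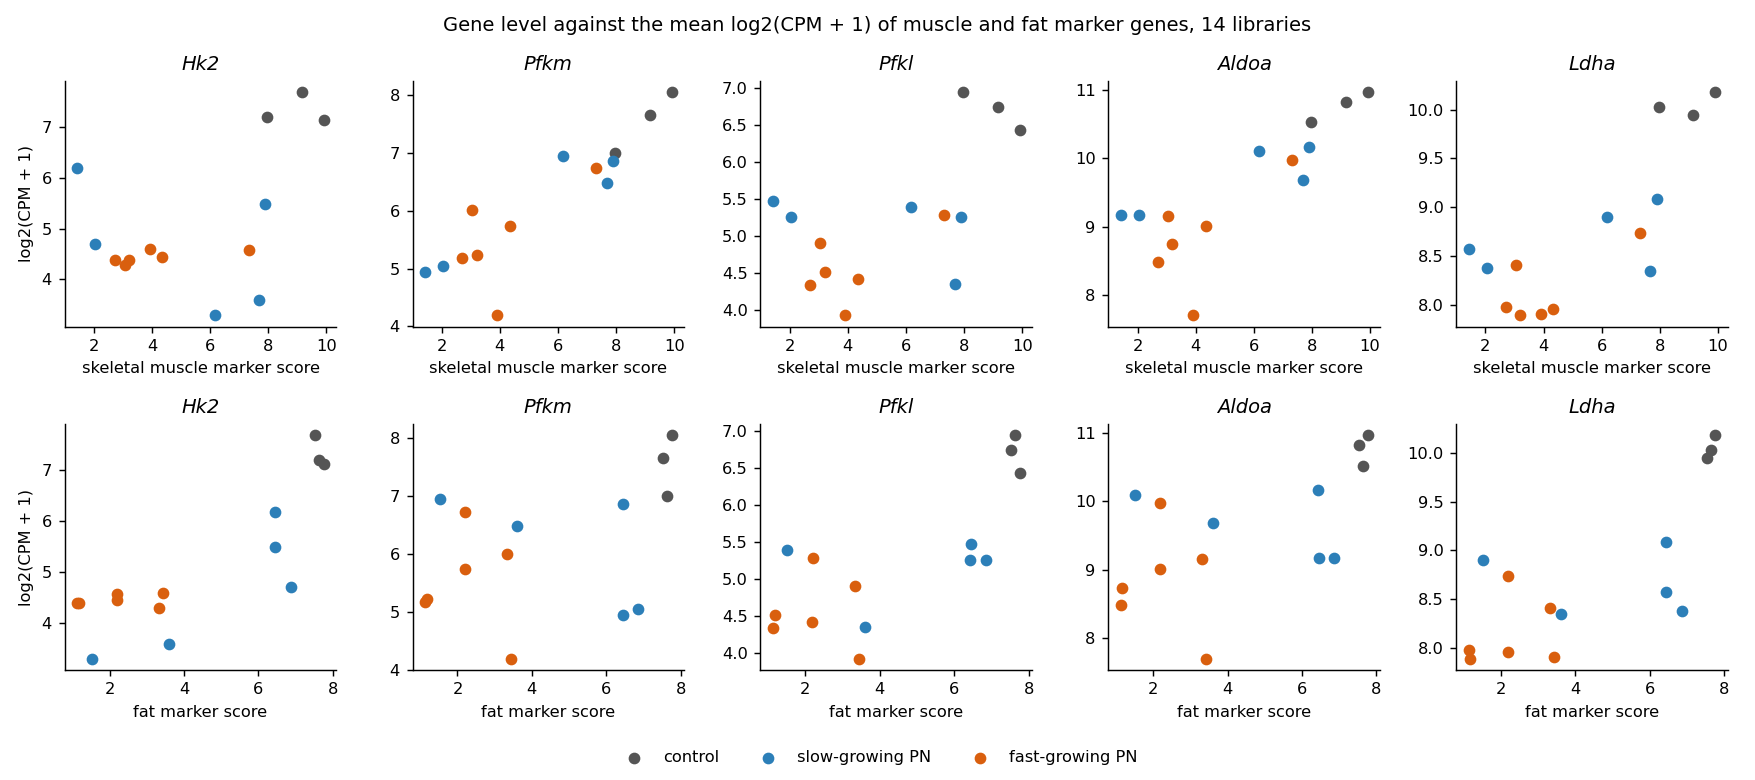
Level of *Hk2*, *Pfkm*, *Pfkl*, *Aldoa*, and *Ldha* (y axis, log2(CPM + 1)) against the mean log2(CPM + 1) of 15 skeletal muscle markers (top) or 13 fat markers (bottom), each point 1 of 14 libraries. PNs with muscle scores near that of control 1, the lowest of the controls, have *Pfkm* of 88.2 to 115 CPM, against its 127 CPM. Their *Ldha* is 324 to 542 CPM, against its 1044 CPM, and their fat scores are 2.19 to 6.44, against its 7.63. They were picked after their values had been seen. Slow-growing PN 4, with a muscle score of 6.17, has *Pfkm* of 122 CPM.

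The genes whose levels ran most alike over the 14 libraries, by Pearson r of log2(CPM + 1), differed between isoforms. *Hk2* was closest to *Plin2* (r = 0.98), *Ppp1r3b*, and *Plin5*, of which *Plin2* and *Plin5* encode lipid droplet proteins. *Pfkm* was closest to *Tmem38a* (r = 0.98), a cation channel of muscle, *Pde4dip*, and *Rtn2*. *Pfkl* was closest to *Cox8a* (r = 0.98), *Cox6a1*, and *Sod1*, and *Ldha* to *Atp5c1* (r = 0.99), *Ndufb3*, and *Cox7b*, in both lists mostly subunits of the respiratory chain. *Aldoa* was closest to *Gapdh* (r = 0.99), *Apoo*, and *Mgst3*. *Aldoc* was closest to *Cend1*, *Gng3*, and *Diras1* (r = 0.99 each), which are expressed in neurons. *Hk1* was closest to *Actr1a* (r = 0.98), *Bcam*, and *Kif21a*, *Pfkp* to *Osbpl10* (r = 0.99), *Nup93*, and *Lonrf1*, *Ldhb* to *Fn3k* (r = 0.96), *Rabgef1*, and *Hsdl2*, and *Pkm* to *Egln2* (r = 0.97), *Gnas*, and *Hagh*. Among the members, *Pfkm* and *Aldoa* ran together at r = 0.95, *Pfkl* and *Ldha* at 0.95, *Hk1* and *Pfkp* at 0.89, and *Hk1* and *Hk2* at -0.53. These values describe 14 libraries that share group, tissue makeup, and preparation. Fast-growing PN 4, with *Aldoc* at 1.97 CPM and a neuron score of 1.69, is among them and can weigh heavily on r. No r was computed without it.

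The other enzymes of glycolysis were read from the same fits. *Tpi1*, *Gapdh*, *Bpgm*, *Pgam2*, and *Eno3* were lower over all PNs by the edgeR test. *Gapdh*, of the step after aldolase, fell from 1176 ± 61.6 CPM (SD, n = 3) to 490 ± 199.8 CPM (n = 11), 2.43-fold (edgeR adjusted p = 0.0101), and *Tpi1* fell 2.0-fold (adjusted p = 0.0261). The muscle forms *Pgam2* and *Eno3* fell 9.61-fold and 7.58-fold (edgeR adjusted p = 0.0233 and 0.0182). The general or neuronal forms had smaller values: log2 fold changes were -0.38 for *Gpi1*, -0.60 for *Pgk1*, -0.65 for *Pgam1*, and 0.43 for *Eno2* (edgeR adjusted p between 0.108 and 0.604). *Eno1* stood at 1.58 ± 0.65 CPM (SD, n = 3) in controls, with a near-identical copy (*Eno1b*) as a row of its own, so its value is uncertain. Of the enzymes named here, *Gapdh* alone was called in slow-growing PNs, and *Pgk1* and *Pgam1* were called in fast-growing PNs in addition to those 5.

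Of 5 regulators that set the level of the phosphofructokinase activator, *Pfkfb3* was lower in PNs (log2 fold change -1.15 ± 0.33 SE, edgeR adjusted p = 0.0184) and *Pfkfb2* higher, where 26.3% of all genes were called. In fast-growing PNs *Pfkfb2* and *Pfkfb4* were higher and *Pfkfb1* and *Pfkfb3* lower, where 31.4% were called. *Pfkfb4* was 2.17-fold higher in fast-growing PNs than in controls (edgeR adjusted p = 0.0151), with an adjusted p of 0.0774 between fast-growing and slow-growing PNs. Of 9 glucose and lactate transport genes, 3 were lower over all PNs, where 13.4% of all genes were: the insulin-responsive glucose transporter *Slc2a4* (7.54-fold, edgeR adjusted p = 0.00518) and the lactate transporters *Slc16a1* (2.68-fold, adjusted p = 0.000119) and *Slc16a3* (2.75-fold, adjusted p = 0.0094). *Slc2a1*, the glucose transporter of perineurium, stood at 147 ± 87.9 CPM in control tissue against 159 ± 52.2 CPM in PNs (SD, edgeR adjusted p = 0.862). Of 13 genes of pyruvate entry into mitochondria, 10 were lower over all PNs, where 13.4% of all genes were, and *Pdp1* was higher, with the inhibitory kinase *Pdk4* 5.60-fold lower (edgeR adjusted p = 0.00686). Between fast-growing and slow-growing PNs, 4 of these 13 were lower in fast-growing PNs (*Pdk2*, *Mpc1*, *Pdp2*, and *Dlat*), where 0.47% of all genes were lower. No gene of the whole table was called lower in this comparison without slow-growing PN 1, 3, or 5 or fast-growing PN 1, 3, 4, or 6, or with muscle and fat covariates. Of 11 glycogen breakdown genes, 6 were lower over all PNs against 13.4% of all genes, 2 in slow-growing PNs against 7.13%, and 7 in fast-growing PNs against 16.7%.

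Some rows could hold reads of neighbors, since the strand setting of the counting is not given in the sources used here. In the annotation, exons of *Pfkp* share up to 748 bases with *Pitrm1* on the other strand, those of *Hk1* 157 bases with its antisense gene *Hk1os*, and those of *Pkm* and *Pfkm* 454 and 341 bases with unnamed genes on the same strand. *Ldha* has 4 processed pseudogenes of at least 95% identity over at least 200 bases, and *Ldhb* and *Pkm* 1 each. None of these 6 is a row of the count table.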

How the data were processed

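Bulk RNA-seq was analyzed for 3 control, 5 slow-growing PN, and 6 fast-growing PN libraries. Total RNA was amplified by the authors (Ovation RNA-Seq System v2) and the reads aligned to mm10. Their deposited table holds raw counts for each gene. The submitters' processing notes name TopHat2 2.0.9, featureCounts 1.5.2, and edgeR 3.16.5. A deposited table of normalized values was not used.

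Counts were fitted across all genes in R 4.3.3 with edgeR 4.0.16 (filterByExpr, TMM, quasi-likelihood test, only the libraries compared), with Benjamini-Hochberg adjustment over all genes tested and a threshold of 0.05. All 10 members passed the filter. The SE is the absolute log2 fold change divided by the square root of F. Levels are TMM-scaled CPM, and a depth of 9596773 to 17594164 counts puts a floor of 3 counts at 0.167 to 0.313 CPM, for counting error only. Count ratios used counts + 0.5 and had no test. Libraries were numbered within groups by accession order, and p-values measure the spread between these libraries. The labels give no batch.

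The members, gene lists, and marker lists were chosen with earlier results of these data known. Genes named are all members, a fixed list of other glycolytic, regulatory, and transport genes, and the 3 genes most alike to each member. Further genes of the lists and markers were named after their values had been seen, mostly because they were called. Alternatives were DESeq2 1.42.0, limma-voom 3.58.1, other scaling factors, no filter, all 14 libraries in 1 fit, marker score covariates, each library left out, and, added after the files had been seen, removal of a length and GC trend (mgcv 1.9.3). The fit was tested on simulated data. A gene of the list of other glycolytic enzymes is not reported here, and no count over that list is given. Positions, lengths, overlaps, and copies (BLAST 2.17.0+) came from GENCODE M21 (mm10), and figures from matplotlib 3.10.9.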

Additional observations from a re-analysis of the deposited data

Results flagged for a closer look

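*Pfkl* in slow-growing PN 1 stood far from its group, at 19.4 CPM, where the other slow-growing PNs were between 37.1 and 43.4 CPM. The log2 count ratio of *Aldoa* to *Aldoc* in fast-growing PN 4 was 6.69, where the other fast-growing PNs were between 2.82 and 3.68. That library had 1.97 CPM of *Aldoc* and a neuron marker score of 1.69. Of 32 groups of values examined in this way 2 stood out, and chance gives about 1 in 20.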

How the results depend on the processing

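The number of members called over all PNs was 5. It moved to 0 with muscle and fat covariates, whose scores did not overlap between PNs and controls, and to 8 with the neuron covariate. It was 7 with upper-quartile factors (25.8% of all genes called) and DESeq2 (31.8%), *Ldhb* and *Pkm* being added, 6 in the fit of all libraries (29.4%, *Ldhb* added), and 4 after length and GC removal (22.0%). It ranged from 3 (without control 3) to 6 when each library was left out. In slow-growing PNs it was 4 (11.3% of all genes called). It was 5 by DESeq2 (22.5%, *Pfkm* added, adjusted p = 0.04) and with the neuron covariate (12.9%, *Pkm* added, edgeR adjusted p = 0.0109). It was 0 under muscle and fat covariates, as for all genes, and 2 to 4 with a library left out, 2 being reached without control 2 or 3 or slow-growing PN 1, 3, or 5. In fast-growing PNs it was 7, with 0 under those covariates and 5 to 7 with a library left out. Over the settings that kept all libraries, the fast-growing log2 fold change was -2.86 or lower for *Hk2* and -1.80 or lower for *Pfkl*. Neither was called with muscle and fat covariates (edgeR adjusted p = 0.358 and 0.828). The log2 fold change of *Pfkm* came as near to 0 as -0.48. Between fast-growing and slow-growing PNs it was 0, with 1 (*Ldhb*) under DESeq2, all libraries in 1 fit, the neuron covariate, and length and GC removal, and 0 to 1 with a library left out, 1 being reached without slow-growing PN 2 or 4 or fast-growing PN 2. Removal of length and GC trends also ended the *Aldoa* call over all PNs (adjusted p = 0.0848) and in slow-growing PNs (adjusted p = 0.235), the latter lost too without the filter (0.0572) and with all libraries in 1 fit (0.0692). The cause of these changes was not tested.

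Only uncalled log2 fold changes changed sign. Over all PNs these were *Aldoc* with limma-voom (-0.094) and the neuron covariate (-0.18) and, with libraries left out, over a range of -0.091 to 0.75, and *Ldhb* with muscle and fat covariates (0.33). In slow-growing PNs they were *Pfkp* with muscle and fat (-0.12) and neuron covariates (-0.22), *Aldoc* with the neuron covariate (-0.18), and *Ldhb* after length and GC removal (0.15). In fast-growing PNs they were *Pfkp* with muscle and fat covariates (0.92) and, with libraries left out, from -0.24 to 0.22, and *Aldoc* from -0.35 to 0.41. Between fast-growing and slow-growing PNs it was *Hk2* with muscle and fat covariates (0.72). The difference in the log2 *Pfkm* to *Pfkp* ratio between PNs and controls was -1.96 and ranged from -2.52, without control 1, to -1.51.

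Counts over all genes varied. They were 4283 over all PNs, 523 with muscle and fat covariates and 2061 without control 3 (2476 without control 2). In slow-growing PNs they were 1769, with 3529 by DESeq2, 3280 with all libraries in 1 fit, 0 with muscle and fat covariates, and 599 to 2454 with a library left out (599 to 1052 without control 2 or 3 or slow-growing PN 1 or 3). In fast-growing PNs they were 5043, with 3342 without control 3 and 0 with muscle and fat covariates. Between fast-growing and slow-growing PNs they were 196, with 34 (limma-voom) to 1592 (DESeq2) over other tools, 72 to 423 under other scalings, the fit of all libraries, the neuron covariate, and length and GC removal, and 0 with muscle and fat covariates (1593 at an unadjusted p under 0.05). They were 372 to 1194 without slow-growing PN 2 or 4 or fast-growing PN 2 and 2 to 65 without any other single library. No paired analysis was possible because the labels share no replicate number between groups. With 3 controls, each control carries much of the comparison. The lowest levels described, such as *Slc16a3* at 0.641 CPM and *Eno1* at 0.529 CPM in a PN, lie nearest to the floor of 3 counts.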
